A study of Mus musculus with 18 samples.

Results

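The 52 genes described here are interferon-stimulated genes, chosen by name from the 21254 genes of a table of read counts, and all 52 passed the filter on low counts that left 15811 genes to be tested. The counts came from bulk RNA-seq of lung monocyte-derived cells of mice that had inhaled Pseudomonas aeruginosa lipopolysaccharide (LPS) as an aerosol, with the cells sorted 24 h later. Adult C57BL/6 mice of both sexes and of 2 genotypes were used. WT mice were B6.Cx3cr1tm1.1(cre)Jung/J, which carry Cre recombinase under the Cx3cr1 promoter, and Ezr-KOm mice carried the same Cre together with floxed Ez alleles (B6.Ez fl/fl), so both genotypes carried Cre and both received LPS. From each genotype 3 populations of CD45+ CD11b+ cells were sorted. They were moM (monocyte-derived macrophages, MHC-II- Ly6C+), trIM (transitional interstitial macrophages, MHC-II+ Ly6C+) and matIM (mature interstitial macrophages, MHC-II+ Ly6C-). There were 18 libraries, 3 for each population of each genotype, and no untreated cells were among them, so the levels below are levels after LPS and not induction by LPS. As limits of the model, the study's text reports weak activity of this Cre in some dendritic, eosinophil and NK cells and loss of ezrin in alveolar macrophages too, and the labels do not tie the replicate numbers to single mice.

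Interferon-stimulated genes are switched on when interferons bind their receptors and activate JAK kinases and STAT factors. Type I interferons, which macrophages release when LPS engages TLR4 and the adaptor TRIF, act through transcription factors that bind the interferon-stimulated response element (ISRE), whereas interferon-gamma, made mostly by T and NK cells, acts largely through the gamma-activated site (GAS). The products include antiviral effectors (IFIT, OAS and Mx proteins, viperin, tetherin), the ubiquitin-like modifier ISG15, guanylate-binding proteins (GBPs) and immunity-related GTPases (IRGs) that attack vacuoles holding microbes, sensors of foreign nucleic acid and the interferon signalling factors themselves. The 52 genes comprised 5 IFIT genes, 6 OAS genes, 2 Mx genes, 3 genes of the ISG15 system, 5 GBPs, 5 IRGs, 4 sensors of nucleic acid, 5 PYHIN (Ifi200) genes, 5 effectors acting on nucleotides or membranes, 3 Schlafen genes and 9 regulators and other genes.

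Many of these genes share a chromosome with others of their family (GRCm39, positions of the deposited table). The 5 IFIT genes occupied chromosome 19, the 5 PYHIN genes chromosome 1 and all 6 OAS genes chromosome 5, while 11 of the 52 genes, among them the 5 IRGs and the 3 Schlafen genes, lay on chromosome 11. Promoter windows of 300 bases, from 250 bases before the annotated start to 50 bases from it, were searched on both strands for the ISRE letters GAAANNGAAA and the GAS letters TTCNNNGAA, where N is any base. ISRE letters were present in 32 of the 52 windows (61.5%), against 3.89% of the windows of 15754 tested genes. GAS letters were present in 12 of the 52 (23.1%), against 7.63% of all. All 4 sensors of nucleic acid had ISRE letters, and among the 10 GBPs and IRGs 7 had ISRE letters and 5 had GAS letters. The 150 bases before the start are printed 5′ to 3′ on the strand of the gene for 6 genes that carry the results below, with the matched letters in capitals. Matches of the ISRE letters on the opposite strand read TTTC, 2 other bases and TTTC. They show an IFIT gene with 2 separate ISRE matches (chr19:34560749-34560898, plus strand), the overlapping ISRE matches of Isg15 (chr4:156285304-156285453, minus strand), single ISRE matches in Oas2 (chr5:120887934-120888083, minus strand) and Rsad2 (chr12:26506452-26506601, minus strand), the GAS match of Samhd1 (chr2:156977188-156977337, minus strand), and Slfn1, whose window held neither (chr11:83007465-83007614, plus strand).
Ifit3: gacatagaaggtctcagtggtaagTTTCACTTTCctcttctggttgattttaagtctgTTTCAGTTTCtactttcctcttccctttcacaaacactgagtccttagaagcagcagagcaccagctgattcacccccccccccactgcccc
Isg15: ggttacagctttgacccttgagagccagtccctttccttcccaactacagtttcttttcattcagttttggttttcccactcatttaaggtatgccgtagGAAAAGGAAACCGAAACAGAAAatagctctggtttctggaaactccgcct
Oas2: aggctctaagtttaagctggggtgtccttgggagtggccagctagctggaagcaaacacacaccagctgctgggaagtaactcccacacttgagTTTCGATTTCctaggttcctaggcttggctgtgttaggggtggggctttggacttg
Rsad2: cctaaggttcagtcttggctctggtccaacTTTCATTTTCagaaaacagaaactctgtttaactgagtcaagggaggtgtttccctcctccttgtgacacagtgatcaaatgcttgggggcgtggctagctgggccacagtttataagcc
Samhd1: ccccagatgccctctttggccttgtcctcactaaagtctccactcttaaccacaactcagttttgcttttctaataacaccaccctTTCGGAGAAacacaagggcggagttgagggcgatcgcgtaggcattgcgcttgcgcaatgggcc
Slfn1: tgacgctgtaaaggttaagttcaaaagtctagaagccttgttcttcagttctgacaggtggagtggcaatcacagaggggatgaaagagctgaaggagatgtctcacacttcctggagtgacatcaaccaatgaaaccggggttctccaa
The 3 matches of Isg15 began 50, 44 and 38 bases before its start, those of Ifit3 126 and 92 bases before, that of Oas2 56, that of Rsad2 120 and that of Samhd1 64 bases before. At least 1 of the 2 motifs was present in 35 of the 52 windows, and Mx1, Mx2 and Slfn1 were among the genes with neither. A match is a description of these letters in this window only.

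Total counts per library ranged from 16512783 to 48460995, the deepest being the Ezr-KOm trIM library numbered 2, and the normalization factors (TMM) from 0.931 to 1.07. Levels are given as CPM (counts scaled to a common library size) on the TMM scale, in the order of replicates 1, 2 and 3, and the members took between 0.554% and 1.13% of a library's counts. Ezr, the targeted gene, was at 503, 593 and 497 CPM in WT moM and at 282, 160 and 252 CPM in Ezr-KOm moM. It was at 679, 515 and 565 CPM in WT trIM against 234, 126 and 213 CPM in Ezr-KOm, and at 741, 632 and 611 CPM in WT matIM against 167, 93.8 and 144 CPM in Ezr-KOm. Ezr was therefore lower in every Ezr-KOm library than in any WT library of its population, and lowest in the library numbered 2 each time. By edgeR's quasi-likelihood test with Benjamini-Hochberg adjustment, used for every adjusted p below, its log2 fold change was -1.20 in moM (adjusted p = 0.0549), -1.62 in trIM (adjusted p = 0.00365) and -2.29 in matIM (adjusted p = 7.73e-05). H2-Ab1, a gene of the MHC-II gate, was at 984 to 1775 CPM in moM and 7930 to 18400 CPM in trIM and matIM. Ly6c2 was at 400 to 582 CPM in moM, 110 to 413 CPM in trIM and 28.7 to 76.5 CPM in matIM. Ly6c1, also on the list of gate genes, was instead highest in trIM. It was at 14.5 to 32.9 CPM in moM, 55.8 to 113 CPM in trIM and 5.64 to 12.03 CPM in matIM. The 9 monocyte and macrophage markers summed to 5073 to 5820 CPM in moM, 5220 to 5509 in trIM and 3835 to 4509 in matIM. From WT moM to WT matIM 3 of these 9 rose and 4 fell at the adjusted p. Markers of other cells moved with the populations. The summed CPM of 7 epithelial markers was 20.2 to 126 in moM, 1484 to 3977 in trIM and 165 to 367 in matIM, and that of 9 dendritic cell markers was 83.5 to 125, 314 to 624 and 5745 to 7880. The 6 B cell markers summed to 8.79 to 13.3 in moM, 40.1 to 110 in trIM and 90.8 to 238 in matIM. Sums were highest in trIM for 5 endothelial markers (77.8 to 113, 192 to 415 and 68.7 to 96.9) and 5 fibroblast markers (21.5 to 51.2, 79.3 to 145 and 12.4 to 29.5). The 8 neutrophil markers summed to 302 to 519, 166 to 331 and 107 to 306. Among them Mmp8 alone was at 226 to 422, 22.8 to 66.5 and 8.07 to 23.3 CPM and made up most of the sum in moM. From WT moM to WT matIM 3 of the 8 rose and 1 fell at the adjusted p. Of 7 alveolar macrophage markers, Chil3 alone was at 4888 to 8342, 866 to 1952 and 238 to 432 CPM, while the other 6 summed to 30.9 to 51.8, 64.5 to 117 and 124 to 210 CPM, and from WT moM to WT matIM 6 of the 7 rose and Chil3 fell at the adjusted p. The 10 T and NK cell markers summed to 34.1 to 71.6 CPM in all libraries. In bulk libraries, fewer cells that express a gene and less RNA of it per cell cannot be told apart.

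Levels per kilobase were taken over all annotated exons of a gene, so their ranking depends on which transcripts are annotated. On that scale Ifitm3, which blocks viral entry at membranes, had the highest mean level over the 18 libraries at 851 CPM per kb. It was followed by Isg15 at 196, Gbp2 at 116, Bst2 (tetherin) at 94.9 and Samhd1, which hydrolyses deoxynucleotides, at 92.5 CPM per kb. The lowest was Ifi44 at 2.07 CPM per kb, behind Herc6 at 2.31. Part of the exon length of Isg15 (31.1%) overlaps a transcript of the opposite strand. Ifitm3 led in every population, and its WT means of 1067, 733 and 678 CPM per kb in moM, trIM and matIM stood above those of every other member.

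The clearest feature of the 52 genes was a difference among the Ezr-KOm libraries themselves. In each population the Ezr-KOm library numbered 2 was low. It was the lowest of its 3 libraries for 52 of 52 members in moM, 49 in trIM and 50 in matIM, whereas the library numbered 2 was the lowest for 31.4% to 31.5% of all tested genes in the same groups. Ezr-KOm library 1 exceeded all 3 WT libraries of its population for 41, 37 and 39 of the 52 members in moM, trIM and matIM, and library 3 did so for 31, 36 and 34, against 19.9% to 27.9% of all tested genes. Library 2 lay below all 3 WT libraries for 47, 32 and 21 members, against 20.0% to 23.8% of all tested genes. The median log2 ratio of the members to the WT mean was thus 0.42, -0.47 and 0.26 in the Ezr-KOm moM libraries, 0.59, -0.46 and 0.66 in trIM and 0.53, -0.19 and 0.36 in matIM. In the WT libraries it stayed between -0.15 and 0.15, and the median over all tested genes lay between -0.03 and 0.05 in every library. The median SD of the members' log2 CPM within a group was 0.57, 0.58 and 0.42 in Ezr-KOm moM, trIM and matIM, against 0.22, 0.29 and 0.21 in WT. Over 7516 tested genes in the same range of levels it was between 0.15 and 0.24 in all 6 groups. The wider spread of the members among Ezr-KOm libraries was present in all 3 populations, and the labels name no batch. The study used 3 mice per genotype, so the libraries numbered 2 of the 3 populations may come from 1 mouse. The 3 populations cannot be taken as independent observations of this feature. Ezr was also lowest in the Ezr-KOm library 2 of each population; its part in the low member levels was not tested.

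**Figure D1:**
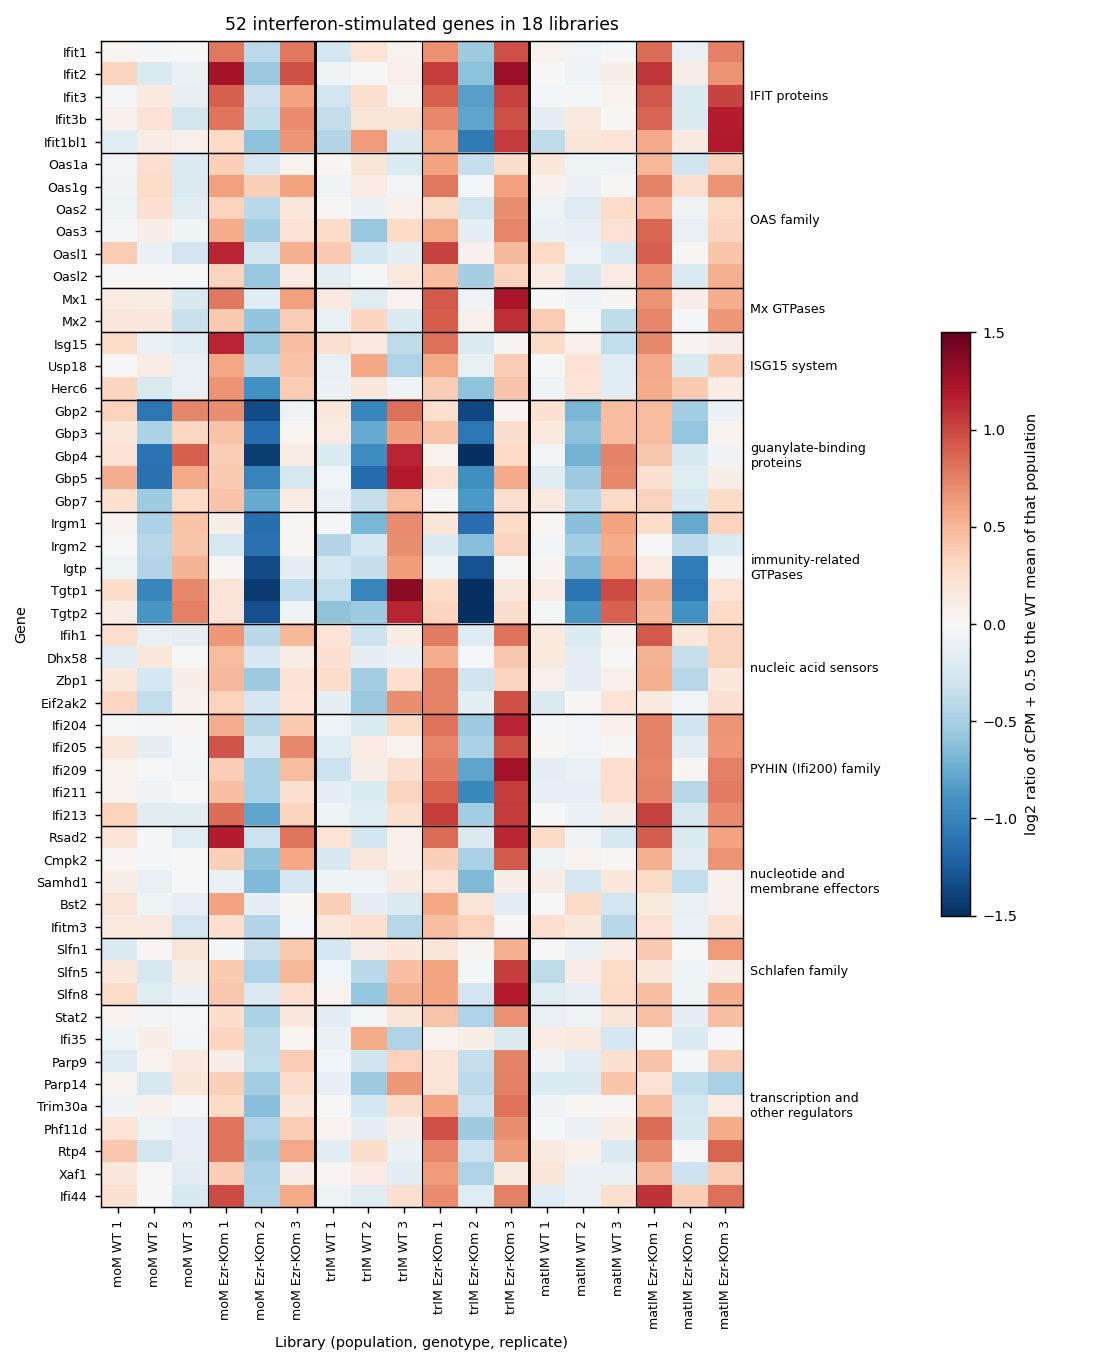
Heat map of the 52 genes (rows, by role) in the 18 libraries (columns), coloured by the log2 ratio of CPM + 0.5 to the WT mean of the same population. The Ezr-KOm library numbered 2 is blue and the Ezr-KOm libraries 1 and 3 are mostly red in each population, with median ratios in moM of -0.47 against 0.42 and 0.26.

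The comparison of genotypes asks whether loss of ezrin in these cells went with a change of the interferon-stimulated genes after LPS. At an adjusted p under 0.05, 0 of the 52 genes differed between Ezr-KOm and WT in moM (0.171% of all tested genes were called), 0 in trIM (0.164%) and 0 in matIM (0.152%), by edgeR and also by DESeq2. DESeq2 called 0.348%, 0.348% and 0.329% of all tested genes. At an unadjusted p under 0.05 by edgeR there were 1, 3 and 2 members, each of them higher in Ezr-KOm, where 2.20%, 1.81% and 2.11% of all tested genes were higher at that p. The study's own rule asks for an unadjusted p below 0.05 and a log2 fold change beyond 0.75 in either direction, and it called 0 members in moM (2.51% of all tested genes), 2 in trIM (1.83%) and 1 in matIM (2.40%). The median log2 fold change of the 52 genes was 0.13 in moM, 0.31 in trIM and 0.29 in matIM, beside 0.00 over all tested genes in each population. Estimates were above 0 for 40, 40 and 41 of the 52 members, where about as many tested genes lay above 0 as below (50.5%, 50.4% and 49.8%). In each population all but 2 of the negative estimates belonged to the GBPs and IRGs. Of the 42 other genes 40 were positive in each population, with medians of 0.19, 0.42 and 0.38, and of the 10 GBPs and IRGs 0, 0 and 1 were positive, with medians of -0.35, -0.31 and -0.06.

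**Figure D2:**
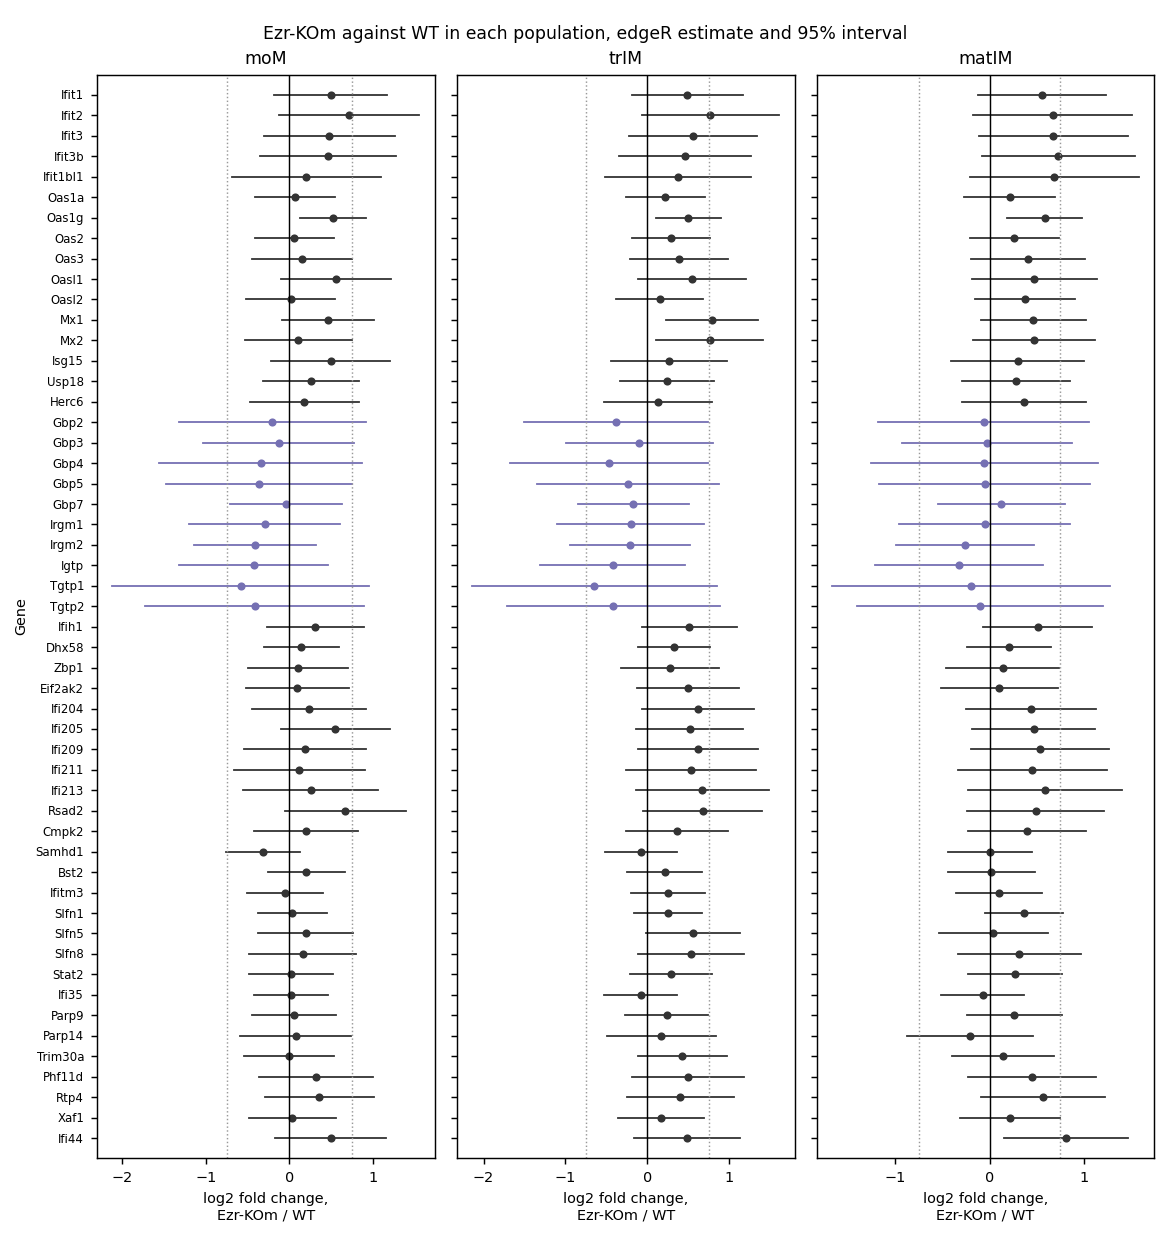
Log2 fold change of each of the 52 genes, Ezr-KOm over WT, in moM, trIM and matIM, as the edgeR estimate with its 95% interval. Dotted lines mark the 0.75 of the study's rule, and the GBP and IRG genes lie left of or near 0 while 40 of the 42 other genes lie right of it in each population.

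Oas1g, a member of the oligoadenylate synthetases that make the messenger activating RNase L, had the smallest p among the members in moM and matIM. In moM it was at 44.6, 56.1 and 39.8 CPM in WT and at 71.1, 59.7 and 70.6 CPM in Ezr-KOm, so the groups did not overlap (log2 fold change 0.52, SE 0.19, unadjusted p = 0.0127, adjusted p = 0.967). In trIM WT had 46.5, 53.8 and 47.7 CPM and Ezr-KOm 85.6, 48.8 and 75.5 CPM, with library 2 inside the WT range (log2 fold change 0.50, unadjusted p = 0.0150). Its levels in matIM were 31.0, 27.7 and 29.997 CPM in WT and 50.02, 35.3 and 47.5 CPM in Ezr-KOm, again without overlap (log2 fold change 0.58, SE 0.19, unadjusted p = 0.00624, adjusted p = 0.773). Oas1g is 97.3% identical to Oas1a over the aligned transcript, so reads can be shared between them, and Oas1a had log2 fold changes of 0.07, 0.22 and 0.21. The remaining OAS genes had estimates from 0.01 to 0.56. Oasl2, the most abundant OAS gene, was at 271, 273 and 273 CPM in WT moM and at 344, 184 and 297 CPM in Ezr-KOm moM, where the WT libraries lay between the Ezr-KOm libraries. It was at 214, 233 and 261 CPM in WT trIM against 322, 167 and 298 CPM, and at 215, 168 and 217 CPM in WT matIM against 321, 171 and 287 CPM.

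The genes of the Mx GTPases, which in functional form trap viral ribonucleoproteins, were the 2 members called by the study's rule in trIM. Mx1 was at 51.4, 41.2 and 48.7 CPM in WT trIM and at 89.2, 44.9 and 111 CPM in Ezr-KOm trIM (log2 fold change 0.79, SE 0.27, unadjusted p = 0.00826, adjusted p = 1). Mx2 was at 9.89, 13.6 and 9.25 CPM in WT trIM and at 20.7, 11.4 and 23.6 CPM in Ezr-KOm trIM (log2 fold change 0.76, unadjusted p = 0.0241, adjusted p = 1). In both genes Ezr-KOm libraries 1 and 3 were high and library 2 lay among the WT libraries. In moM Mx1 was at 67.6, 67.4 and 52.9 CPM in WT against 108, 55.1 and 95.3 CPM (log2 fold change 0.46). In matIM it was at 59.9, 57.6 and 61.6 CPM against 95.2, 64.2 and 87.3 CPM (log2 fold change 0.46). Mx2 was at 21.5, 21.3 and 15.0 CPM in WT moM against 25.1, 12.5 and 24.8 CPM, and at 15.1, 11.5 and 8.68 CPM in WT matIM against 19.3, 11.2 and 18.4 CPM. Both genes carry the biotype polymorphic pseudogene in the deposited table, and their coding sequence is known to be disrupted in some inbred strains. The alleles of these mice were not examined. The values are therefore levels of RNA and do not show that functional Mx protein was made.

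The IFIT genes, whose products bind RNA that lacks self marks, had median log2 fold changes of 0.48, 0.49 and 0.68 in moM, trIM and matIM. These were the highest medians of the 11 groups in moM and matIM, while in trIM the Mx genes (0.78), the PYHIN genes (0.62) and the Schlafen genes (0.54) had higher ones. Ifit2 was at 190, 129 and 141 CPM in WT moM and at 358, 103 and 294 CPM in Ezr-KOm moM (log2 fold change 0.72, SE 0.40, unadjusted p = 0.0898). It was at 145, 151 and 161 CPM in WT trIM against 311, 98.8 and 370 CPM (0.77, SE 0.40), and at 137, 130 and 147 CPM in WT matIM against 289, 147 and 220 CPM (0.67, SE 0.40). In all 3 populations the WT libraries of Ifit2 lay closer together than the Ezr-KOm libraries, of which 1 and 3 were above every WT library. In matIM Ezr-KOm library 2 was also above them, but barely, at 147.2 CPM against 146.6 CPM in WT library 3. Ifit3b was at 22.3, 27.3 and 25.2 CPM in WT matIM and at 45.7, 21.3 and 56.7 CPM in Ezr-KOm matIM (log2 fold change 0.73, unadjusted p = 0.0762), and its transcript is 97.2% identical to that of Ifit3. Rsad2, which encodes the antiviral enzyme viperin, was at 250, 214 and 191 CPM in WT moM against 491, 173 and 378 CPM (log2 fold change 0.67, SE 0.35, unadjusted p = 0.0679). Its values were 266, 191 and 243 CPM against 414, 199 and 506 CPM in trIM, and 207, 162 and 143 CPM against 316, 146 and 257 CPM in matIM. Ezr-KOm libraries 1 and 3 were thus above all WT libraries and library 2 was among or below them.

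**Figure D3:**
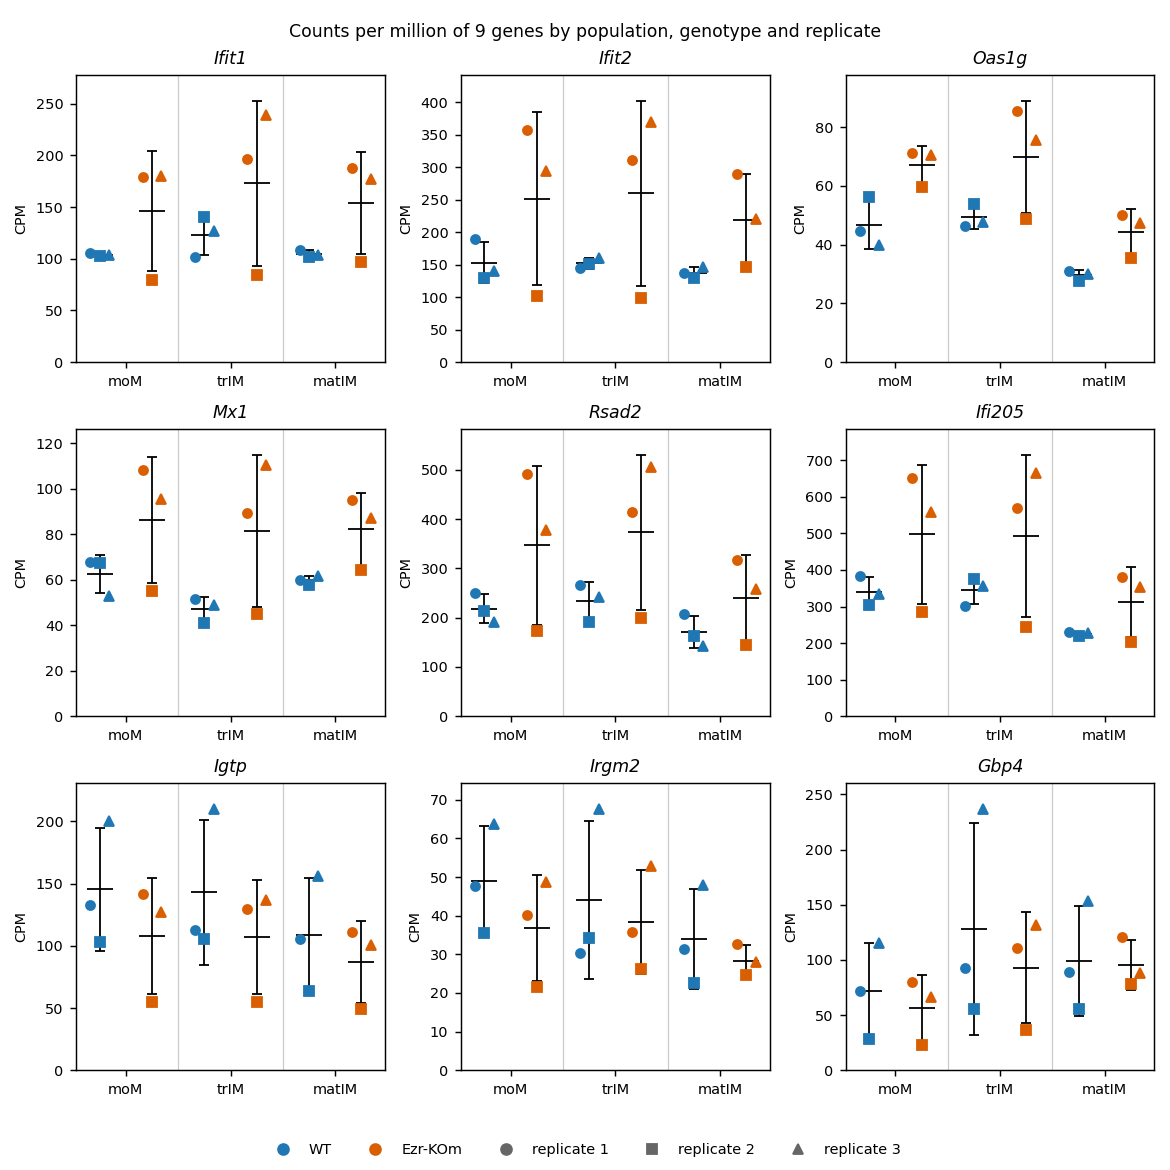
CPM of 9 genes in each library by population, with WT in blue and Ezr-KOm in orange, replicate numbers by marker shape, and bars for the mean and SD of 3 libraries. The Ezr-KOm square (replicate 2) lies far below the circle and triangle in Ifit1, Ifit2, Rsad2 and Ifi205, for example at 79.2 against 179 and 180 CPM for Ifit1 in moM.

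Among the regulators and other genes, Ifi44 was the member called by the study's rule in matIM, at 8.42, 8.89 and 11.2 CPM in WT and 20.6, 12.4 and 17.1 CPM in Ezr-KOm, without overlap (log2 fold change 0.81, SE 0.31, unadjusted p = 0.0179, adjusted p = 1.00). In moM it was at 8.65, 7.25 and 6.14 CPM against 14.8, 5.21 and 11.0 CPM. Its levels in trIM were 12.8, 12.05 and 16.0 CPM against 22.4, 11.9 and 23.1 CPM. Groups without overlap and with Ezr-KOm higher were found for 1 member in moM (Oas1g; 4.45% of all tested genes), 0 in trIM (3.05%) and 5 in matIM (Ifit2, Oas1g, Mx1, Ifih1 and Ifi44; 5.03%), and no member was lower without overlap. For Ifit2 in matIM the gap was narrow, with Ezr-KOm library 2 at 147.2 CPM and WT library 3 at 146.6 CPM. The 4 sensors had positive estimates in all populations, between 0.10 and 0.51. Zbp1, a sensor of left-handed nucleic acid that triggers cell death, was at 225, 169 and 218 CPM in WT moM against 283, 140 and 234 CPM. In trIM it was at 197, 115 and 194 CPM in WT against 275, 133 and 207 CPM. Its levels in matIM were 141, 123 and 143 CPM in WT against 196, 100 and 151 CPM. Usp18, the protease that removes ISG15 and dampens receptor signalling, was at 129, 139 and 120 CPM against 194, 96.2 and 174 CPM in moM. Its levels in trIM were 142, 231 and 112 CPM against 230, 143 and 200 CPM. In matIM it was at 141, 168 and 128 CPM against 215, 126 and 189 CPM. Ifi205, the most abundant PYHIN gene, was at 383, 305 and 334 CPM against 650, 285 and 559 CPM in moM. In trIM it was at 302, 374 and 356 CPM against 571, 244 and 666 CPM. Its levels in matIM were 229, 219 and 228 CPM against 379, 202 and 353 CPM. Its log2 fold changes were 0.55, 0.52 and 0.47, and none passed the adjusted threshold. Samhd1 had the smallest p on the lower side in moM, at 1494, 1289 and 1401 CPM in WT and 1300, 881 and 1172 CPM in Ezr-KOm (log2 fold change -0.32, SE 0.21, unadjusted p = 0.146). Parp14, an ADP-ribosyltransferase, was at 65.5, 65.2 and 101 CPM in WT matIM and at 88.1, 58.2 and 53.7 CPM in Ezr-KOm matIM (log2 fold change -0.21), and the estimate became 0.03 without WT matIM library 3.

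Leaving out the Ezr-KOm libraries numbered 2 from all 3 populations, a choice made after their levels had been seen, changed the calls, and the members called were all higher in Ezr-KOm. Among 16139 genes then tested, edgeR called 3 members in moM at an adjusted p under 0.05 (0.0929% of tested genes were called higher), 9 in trIM (0.155%) and 3 in matIM (0.0991%). In moM these were Ifit1 (log2 fold change 0.79, adjusted p = 0.0370), Ifit2 (1.09, adjusted p = 0.00984) and Ifi205 (0.83, adjusted p = 0.0233). In trIM they were the 5 PYHIN genes, Ifit1, Ifit2, Ifit3 and Mx1, with Ifit2 at 1.14 and Mx1 at 1.06 (adjusted p = 0.00464). In matIM they were Ifit1 (0.81), Ifit3 (0.99) and Ifit3b (1.05, adjusted p = 0.0471). The study's rule then called 9 members in moM (1.65% of tested genes were called higher), 18 in trIM (1.38%) and 10 in matIM (1.33%), and the medians over the 52 genes were 0.34, 0.52 and 0.44. Those libraries were left out because they were low in these genes, so these counts describe the other 2 Ezr-KOm libraries and are no independent test of the genotype. Leaving out any other replicate number of either genotype from all populations gave 0 members at the adjusted p in each comparison. Without Ezr-KOm moM library 1 the median in moM was -0.07, with 22 of 52 estimates above 0, and without library 3 it was 0.03. The counts by the study's rule also moved when single libraries were left out, which changes the power of the test for all genes. In moM the rule called 7 members without Ezr-KOm library 2. In trIM it called 18 without Ezr-KOm library 2, 0 without Ezr-KOm library 1 or 3, 1 without WT library 2 and 4 without WT library 3. In matIM it called 6 without Ezr-KOm library 2 and 0 without Ezr-KOm library 1 or WT library 1. Libraries with the same replicate number in the 2 genotypes deviated together, and when that number entered the fit as a block, 0 members were called at the adjusted p in each population, and the study's rule called 0, 0 and 1 (2.74%, 2.28% and 2.94% of all tested genes). With the block Mx1 and Mx2 in trIM were at 0.74 and 0.72, just under the 0.75 of that rule (Mx1 unadjusted p = 0.00269, adjusted p = 0.402; Mx2 unadjusted p = 0.0230, adjusted p = 0.824). At an unadjusted p under 0.05 with the block, 3, 10 and 5 members were higher in Ezr-KOm (3.00%, 3.02% and 3.35% of all tested genes). At the same p 4 members were lower in moM, Igtp, Irgm1, Irgm2 and Samhd1 (2.36%), 1 in trIM, Igtp (2.47%), and 0 in matIM (2.63%).

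The GBPs and IRGs, which are classical targets of interferon-gamma, departed from the other members in the WT libraries as well. WT library 3 was the highest of its group for 10 of these 10 genes in each population, and WT library 2 the lowest for 10, 8 and 10 in moM, trIM and matIM. Their median log2 ratios to the WT mean were 0.19, -0.71 and 0.54 in WT moM, -0.16, -0.72 and 0.77 in WT trIM and 0.04, -0.65 and 0.61 in WT matIM, while the medians of the 42 other genes stayed between -0.09 and 0.08 in the same libraries. In Ezr-KOm the GBPs and IRGs were at 0.28, -1.23 and -0.03 in moM, 0.20, -1.23 and 0.27 in trIM and 0.37, -0.55 and 0.07 in matIM. The libraries numbered 2 were therefore low in these genes in both genotypes, and in the other members in Ezr-KOm.

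**Figure D4:**
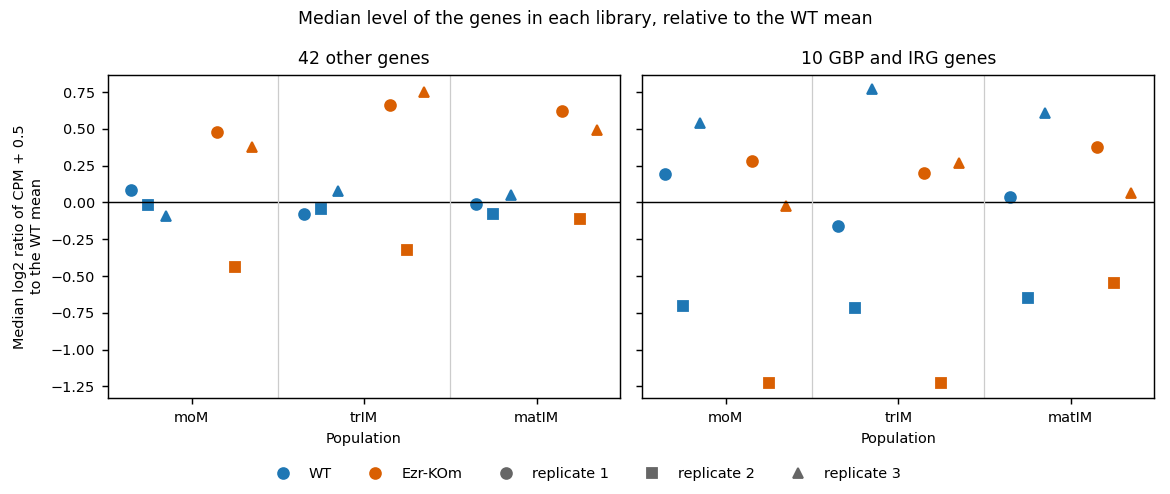
Median log2 ratio of CPM + 0.5 to the WT mean for the 42 other genes (left) and the 10 GBP and IRG genes (right) in each library, by population, genotype (colour) and replicate (marker). On the left the WT libraries lie between -0.09 and 0.08, and on the right they spread from -0.72 to 0.77.

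Igtp, an IRG that coats pathogen vacuoles, was at 133, 103 and 200 CPM in WT moM and 142, 54.9 and 127 CPM in Ezr-KOm moM (log2 fold change -0.43, SE 0.42). It was at 113, 106 and 210 CPM against 129, 54.6 and 137 CPM in trIM and at 105, 63.9 and 157 CPM against 111, 49.0 and 100 CPM in matIM (-0.32). Irgm2, which shares 162 exonic bases with Igtp, was at 47.8, 35.5 and 63.7 CPM against 40.2, 21.7 and 48.6 CPM in moM and at 31.4, 22.6 and 47.9 CPM against 32.6, 24.6 and 28.0 CPM in matIM. In each case WT library 3 was the highest of the 6, and the matIM estimates of Igtp and Irgm2 became 0.03 and 0.07 without it. Tgtp1 was at 12.4, 7.86 and 42.1 CPM in WT trIM against 19.6, 2.69 and 18.1 CPM (log2 fold change -0.65, SE 0.71). Gbp4 was at 92.7, 55.1 and 237 CPM in WT trIM against 111, 36.5 and 132 CPM (-0.47, SE 0.57). Without WT trIM library 3 these estimates were 0.38 and 0.32, so their sign rested on that library. Tgtp1 is 99.8% identical to Tgtp2 and Gbp4 is at least 91.2% identical over part of its length to 5 other GBP genes of the table, so their counts are uncertain. Gbp2, which helps to break open pathogen vacuoles, was at 309, 115 and 403 CPM in WT moM against 393, 95.4 and 230 CPM. Its levels in trIM were 345, 156 and 551 CPM in WT against 365, 120 and 321 CPM. In matIM it was at 370, 197 and 435 CPM in WT against 441, 221 and 297 CPM. Irgm1, a regulator of the other IRGs, was at 226, 157 and 295 CPM against 233, 99.3 and 221 CPM in moM. In trIM it was at 160, 101 and 267 CPM against 185, 73.4 and 201 CPM. Its levels in matIM were 158, 101 and 236 CPM against 188, 91.5 and 197 CPM. Both genes were again lowest in the library numbered 2 of each of the 6 groups.

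Of a list of 57 other genes of the interferon system, 42 were tested, 3 ligands of the table had too few counts and 12 were not analysed here. Between genotypes 0 of the 42 differed at the adjusted p in any population (0.152% to 0.171% of all tested genes were called). Ifnb1, which encodes interferon-beta, was highest in the libraries numbered 1 of both genotypes. It was at 10.8, 2.90 and 2.52 CPM in WT moM and at 32.2, 1.23 and 2.25 CPM in Ezr-KOm moM. Its levels in trIM were 10.8, 3.93 and 3.57 CPM against 27.9, 2.85 and 2.54 CPM, and in matIM 6.38, 2.95 and 1.97 CPM against 15.0, 2.13 and 2.39 CPM. Its order across Ezr-KOm libraries differed from that of the members, since library 3 was near library 2 for Ifnb1 and near library 1 for most members. Ifng was at 0.27 to 3.09 CPM, from 7 to 71 reads per library. It was lowest in library 2 of each group, at 0.622, 0.571 and 0.384 CPM in WT moM, trIM and matIM and at 0.270, 0.738 and 0.550 CPM in Ezr-KOm. Irf1, a factor induced by interferon-gamma, was at 698, 515 and 960 CPM in WT moM, at 469, 249 and 636 CPM in WT trIM and at 502, 359 and 656 CPM in WT matIM, the same order of WT libraries as the medians of the GBPs and IRGs. In Ezr-KOm it was at 581, 387 and 695 CPM in moM, 459, 320 and 454 CPM in trIM and 451, 324 and 531 CPM in matIM. Library 2 was again the lowest there, but libraries 1 and 3 stood in the opposite order to the medians of the GBPs and IRGs in each population. The part of Ifnb1, Ifng or Irf1 in the members' levels was not tested. Irf7, the factor that amplifies type I interferon output, was at 429, 431 and 376 CPM in WT matIM and at 720, 495 and 650 CPM in Ezr-KOm matIM, without overlap (log2 fold change 0.59, unadjusted p = 0.0205, adjusted p = 1.00). In matIM 5.03% of all tested genes were higher in Ezr-KOm without overlap. Irf7 overlapped in moM (614, 616 and 521 CPM in WT against 993, 466 and 709 CPM) and in trIM (594, 648 and 435 CPM against 922, 557 and 697 CPM).

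The comparison of populations within a genotype asks how the genes differ between the 3 sorted populations. The study treats these as successive stages from moM to matIM, which was not tested here, and the marker sums above differ between them. In WT, 9 members were lower in trIM than in moM at an adjusted p under 0.05 (8.61% of tested genes were lower) and 0 were higher (13.0%). Between trIM and matIM 2 members were lower in matIM (10.2%) and 0 higher (8.32%), and between moM and matIM 13 were lower in matIM (11.4%) and 0 higher (13.4%). By DESeq2 11, 2 and 14 members were called in the 3 comparisons (24.8%, 20.6% and 27.4% of all tested genes), and at an unadjusted p under 0.05 by edgeR 14, 3 and 17 (34.0%, 28.0% and 35.0%). The median log2 fold changes were -0.18, -0.20 and -0.44, beside 0.01, 0.04 and 0.01 over all tested genes. The genes that were lower belonged mostly to the Schlafen, PYHIN and OAS families and included Samhd1. Of the IFIT genes, the ISG15 system, the GBPs and the IRGs, 0 of 18 were called in any of these 3 comparisons. That did not hold with genotype and replicate number together as a block, the fit described further on, where 9 of the 18 were called in at least 1 of them. Gbp4, Ifit3b, Isg15 and Tgtp1 were then higher in trIM than in moM, and Irgm1 lower. Gbp7 and Igtp were lower in matIM than in trIM. Between moM and matIM, Gbp7, Ifit1bl1, Igtp, Irgm1 and Irgm2 were lower in matIM and Tgtp1 higher.

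Samhd1 was at 1494, 1289 and 1401 CPM in WT moM, at 644, 641 and 741 CPM in WT trIM and at 661, 520 and 687 CPM in WT matIM. All moM libraries were above all trIM and matIM libraries (log2 fold change -1.05, SE 0.21, adjusted p = 0.00158 for trIM and -1.16, SE 0.21, adjusted p = 0.000460 for matIM). Slfn1, a Schlafen gene linked to the quiescence of lymphocytes, had its lowest levels in matIM, being at 132, 153 and 173 CPM in WT moM, 92.6, 119 and 124 CPM in WT trIM and 52.6, 48.8 and 56.7 CPM in WT matIM. It fell by 1.09 on the log2 scale from trIM to matIM (adjusted p = 0.000592) and by 1.54 from moM to matIM (adjusted p = 1.41e-05), and its change from moM to trIM was -0.45 (adjusted p = 0.115, and adjusted p = 0.00581 with the block, which called it lower). Slfn5 was at 137, 104 and 130 CPM in WT moM, 48.9, 37.9 and 68.7 CPM in trIM and 42.9, 60.4 and 68.1 CPM in matIM, and thus fell by 1.25 from moM to trIM (adjusted p = 0.00313). Part of its exon length (19.8%) overlaps a transcript of the opposite strand, and the library kit does not mark strand.

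**Figure D5:**
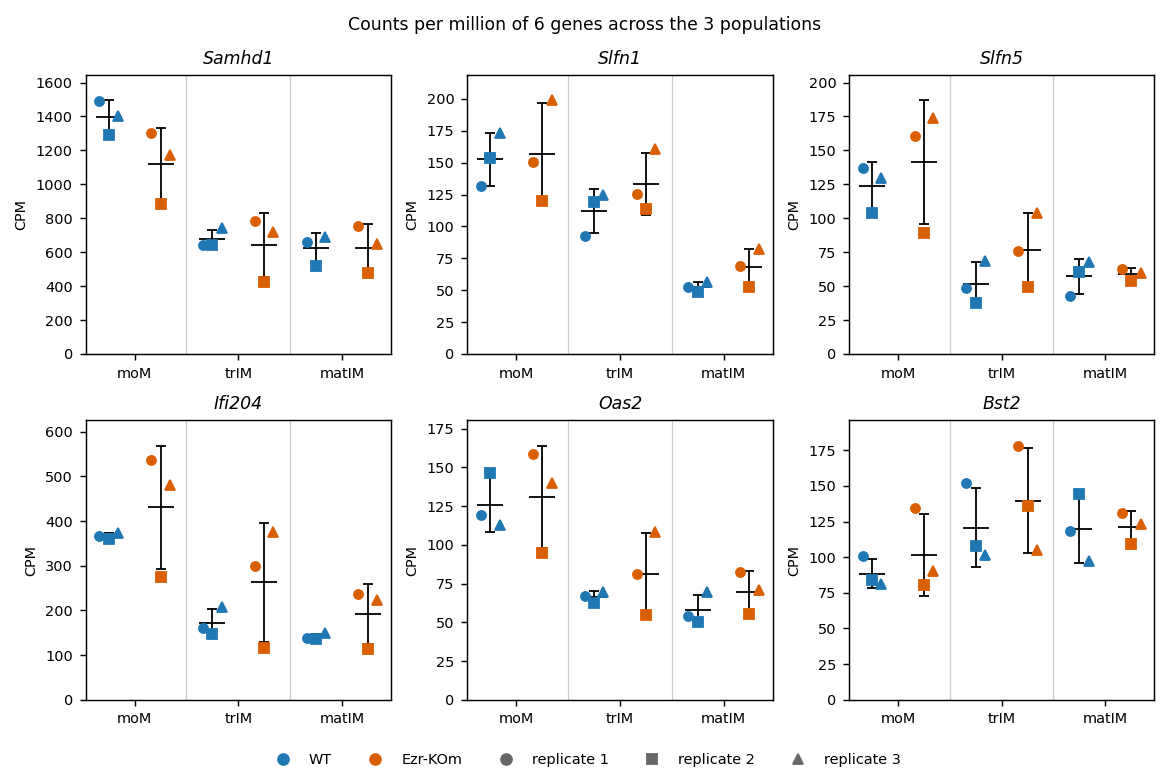
CPM of 6 genes in moM, trIM and matIM, WT in blue and Ezr-KOm in orange, replicates by marker shape, with the mean and SD of 3 libraries. In WT every moM library lies above every trIM and matIM library for Samhd1, Slfn5, Ifi204 and Oas2, and the Slfn1 values in matIM are the lowest, at 48.8 to 56.7 CPM.

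Among the OAS genes, Oas2 was at 119, 146 and 112 CPM in WT moM, 67.0, 62.3 and 69.8 CPM in trIM and 54.1, 50.2 and 69.2 CPM in matIM, with no overlap between moM and the other populations (trIM against moM -0.92, adjusted p = 0.00685; matIM against moM -1.12, adjusted p = 0.00116). Oas3 fell by 0.84 to trIM and by 1.06 to matIM. Oas1g did not pass the test from moM to trIM (0.07) and fell by 0.74 from trIM to matIM (adjusted p = 0.00897). Of the PYHIN genes, which bind DNA, Ifi204 was at 367, 361 and 373 CPM in WT moM against 161, 146 and 207 CPM in trIM (-1.10, adjusted p = 0.0229), and Ifi209 fell by 1.14 (adjusted p = 0.0264). From moM to matIM Ifi204, Ifi209, Ifi211 and Ifi213 fell by 1.38, 1.33, 1.17 and 1.09, and Ifi205 was at -0.60 without passing the test. With the block Ifi205 was called lower in matIM than in moM (-0.59, adjusted p = 0.00248) and than in trIM (-0.61, adjusted p = 0.00259). These 5 genes share sequence of at least 90% identity with one another or with other genes of the family, so the split of reads among them is uncertain. Trim30a, a ubiquitin ligase that restrains TLR signalling, was at 206, 225 and 211 CPM in WT moM, 120, 99.4 and 144 CPM in trIM and 137, 144 and 143 CPM in matIM (trIM against moM -0.82, adjusted p = 0.0301). Eif2ak2, the kinase PKR that stops translation on double-stranded RNA, was at 44.6, 27.8 and 37.5 CPM in moM and 16.8, 12.3 and 30.1 CPM in trIM (-0.89, adjusted p = 0.0406). Cmpk2, a mitochondrial nucleotide kinase beside Rsad2 on chromosome 12, was at 123, 119 and 119 CPM in moM, 80.8, 106 and 98.7 CPM in trIM and 55.6, 60.9 and 59.5 CPM in matIM (matIM against moM -1.03, adjusted p = 0.0160). Ifitm3 was at 1496, 1483 and 1120 CPM in moM, 1039, 1088 and 689 CPM in trIM and 1018, 950 and 638 CPM in matIM (matIM against moM -0.65, adjusted p = 0.0336), and 60.9% of its exon length lies under a transcript of the opposite strand.

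The members with the smallest p on the higher side did not pass the adjusted threshold without the block. Ifi44 was at 8.65, 7.25 and 6.14 CPM in WT moM and at 12.8, 12.05 and 16.0 CPM in WT trIM, without overlap (log2 fold change 0.89, adjusted p = 0.0515), and it was called under several of the alternatives, DESeq2 among them (adjusted p = 0.0240). Bst2 was at 100, 84.0 and 81.1 CPM in moM, 152, 108 and 102 CPM in trIM and 118, 144 and 97.0 CPM in matIM. Ifi35 was at 95.9, 107 and 97.6 CPM in moM, 119, 188 and 93.6 CPM in trIM and 130, 133 and 101 CPM in matIM. Tgtp1 was at 11.7, 4.64 and 16.1 CPM in moM and 25.6, 10.7 and 46.5 CPM in matIM (log2 fold change 1.35), libraries 1, 2 and 3 keeping the same order in both. Libraries of matIM overlapped with those of moM for Bst2 and Tgtp1 and with those of trIM for Bst2, and Ifi35 overlapped throughout. Parp9, a partner of an ADP-ribosylating ubiquitin ligase, was at 66.4, 78.9 and 83.4 CPM in moM, 51.7, 43.4 and 67.9 CPM in trIM and 68.4, 62.7 and 82.8 CPM in matIM. Herc6, the ligase that attaches ISG15 in mice, was at 25.7, 17.4 and 18.9 CPM in moM, 19.1, 22.6 and 19.3 CPM in trIM and 24.4, 29.2 and 22.5 CPM in matIM. Their log2 fold changes from trIM to matIM were 0.39 and 0.32.

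Libraries of one genotype with the same replicate number also deviated together across populations, and a block for them (genotype and replicate number together) raised the counts. In WT, 19 members were then lower in trIM than in moM (13.4% of tested genes) and 7 higher (16.6%), namely Bst2, Gbp4, Ifi44, Ifit3b, Isg15, Oasl1 and Tgtp1. From trIM to matIM 9 were lower (12.7%) and Parp9 was the 1 higher (11.2%). From moM to matIM 28 were lower (15.1%) and 3 higher (16.5%), Bst2, Oasl1 and Tgtp1 (1.29, adjusted p = 0.000919). The counts without the block changed when single libraries were left out. Fewer libraries lower the power for all genes, and the share of all tested genes called in these fits is not given here. Without WT moM library 1, 2 or 3 the 9 members lower in trIM became 4, 4 and 3, and without WT trIM library 1 or 2 they became 4 and 3. Without WT matIM library 2 the 13 members lower in matIM than in moM became 8. Epithelial, endothelial and fibroblast marker sums were highest in trIM, dendritic cell and B cell marker sums highest in matIM, and Chil3 fell from moM to matIM, as given above. The neutrophil sum, mostly Mmp8 in moM, was lower in WT matIM than in WT moM, with 3 of its 8 markers called higher and 1 lower. The part of these markers in the members' differences was not tested. Bst2 is itself a marker of plasmacytoid dendritic cells, and the 7 other markers of these cells on the list summed to 63.1 to 89.6 CPM in moM, 71.0 to 101 in trIM and 119 to 151 in matIM. Among them Spib was at 0.0787 to 0.522, 1.84 to 4.37 and 13.8 to 24.5 CPM and Ly6d at 0 to 0.661, 6.57 to 15.0 and 15.3 to 41.7 CPM, while Siglech was at or below 1.55 CPM in every library. Of the 7 markers tested, Bst2 included, 3 were called higher in trIM than in moM and 2 in matIM than in moM in WT, and their part in the level of Bst2 was not tested.

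In Ezr-KOm fewer members passed the adjusted threshold. In trIM against moM 3 were lower (5.04% of tested genes) and 0 higher (9.23%), in matIM against trIM 2 were lower (9.85%) and 0 higher (8.37%), and in matIM against moM 7 were lower (10.7%) and 0 higher (12.5%). The 3 were Samhd1 (-0.80, adjusted p = 0.0146), Slfn5 (-0.89, adjusted p = 0.0356) and Oas2 (-0.69, adjusted p = 0.0482). The 2 were Slfn1 (-0.98, adjusted p = 0.00154) and Oas1g (-0.66, adjusted p = 0.0179). The 7 were these 5 with Ifi204 (-1.17, adjusted p = 0.0140) and Oas3 (-0.81, adjusted p = 0.0496). Each of them was also called lower in WT in the same comparison. Samhd1 was at 1300, 881 and 1172 CPM in Ezr-KOm moM, 783, 425 and 717 CPM in trIM and 754, 477 and 646 CPM in matIM. Slfn1 was at 151, 120 and 199 CPM in Ezr-KOm moM, 126, 114 and 161 CPM in trIM and 69.2, 52.6 and 82.0 CPM in matIM, so that every matIM library lay below every other Ezr-KOm library. The median log2 fold changes of the members were -0.07, -0.20 and -0.27. The first of these became 0.01 with upper-quartile normalization and 0.02 with library totals alone, and it was 0.19 without moM library 1, 0.07 without moM library 3 and 0.20 without trIM library 2. With the block, 9 members were lower (8.92%) and 4 higher (12.6%) in trIM against moM, 7 lower (12.9%) and 2 higher (11.5%) in matIM against trIM, and 20 lower (14.7%) and 6 higher (15.6%) in matIM against moM. Without the block the counts changed when single libraries were left out, again with fewer libraries for all genes. The 3 members became 0 without moM library 3 and 1 without trIM library 1. Without trIM library 2 only 1 member was called, and it was higher. The 7 became 14 without moM library 2 and 4 without matIM library 2. The 2 became 4 without trIM library 2 and 1 without trIM library 1 or matIM library 2.

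Whether the effect of genotype differed between populations was tested directly. By edgeR 0 members were called in the 3 interaction contrasts (0% of all tested genes each), 0 members had an unadjusted p under 0.05, and DESeq2 called 0. The smallest p was that of Mx2, whose log2 fold change between genotypes was higher in trIM than in moM by 0.66 (95% interval -0.26 to 1.57). Trim30a differed by 0.43 between trIM and moM, Slfn5 by -0.52 and Eif2ak2 by -0.39 between matIM and trIM, and Slfn1 and Samhd1 by 0.33 each between matIM and moM. The 95% interval of Mx2 spans both signs. The lower levels of members in trIM and matIM are not shown to differ between WT and Ezr-KOm by the smaller counts in Ezr-KOm.

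Several genes of the interferon pathway itself also differed between populations in WT. Of the 42 tested, 1 was higher (13.0% of all tested genes) and 6 lower (8.61%) in trIM than in moM at the adjusted p. In matIM against trIM 2 were higher (8.32%) and 5 lower (10.2%), and in matIM against moM 2 were higher (13.4%) and 11 lower (11.4%). Among the receptors, Ifngr1 fell by 0.82 from moM to trIM, and Ifnar1 and Ifnar2, the chains of the type I interferon receptor, fell by 0.46 and 0.42 from trIM to matIM. Among the genes of sensing, Tlr7 fell by 1.28 and Ly96, the partner of TLR4, by 0.62 from moM to trIM, while Tlr4, Cd14 and the kinase gene Ikbke fell by 1.08, 1.18 and 1.56 from trIM to matIM. Jak2 and Sting1 rose by 1.16 and 0.64 from trIM to matIM. In Ezr-KOm 0 were higher (9.23% of all tested genes) and 5 lower (5.04%) in trIM against moM. In matIM against trIM 3 were higher (8.37%) and 5 lower (9.85%), and in matIM against moM 1 was higher (12.5%) and 9 lower (10.7%).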

How the data were processed

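RNA of sorted lung cells was amplified with SMART-Seq v4, made into Nextera XT libraries (a kit that does not mark strand) and sequenced. Per the labels and the methods, the authors aligned reads with STAR 2.7.9a to GRCm39 (Gencode annotation) and deposited raw read counts per gene; the strand column taken is not stated. The 52 members and all lists were chosen with earlier results of these data known. All 18 libraries entered 1 fit in edgeR 4.0.16 (R 4.3.3): filterByExpr with a minimum count of 10 left 15811 of 21254 genes, followed by TMM normalization, a model with 6 groups of 3 libraries, the quasi-likelihood test and Benjamini-Hochberg adjustment over all tested genes, with a threshold of 0.05. CPM are on the TMM scale, and 0.5 was added before logarithms of single libraries. Totals of 16512783 to 48460995 counts limit precision less than the 3 libraries per group do, and p-values measure the spread between these libraries, which came from 3 mice per genotype per the study's text, though the labels do not tie each library to a mouse. Deviations from group means of libraries with the same replicate number correlated at 0.118 to 0.430 between genotypes (9 pairs) and 0.117 to 0.524 between populations (18 pairs). With different numbers they correlated at no more than 0.0647. The main fit held no block for these numbers, so p-values given without mention of a block ignore this pairing. Fits with a block were alternatives. Named genes were the 3 members with the smallest p in each direction of each comparison between genotypes and of each between WT populations, the 2 with the smallest p of each interaction and the most abundant member of each role, 30 in all; other members named were chosen after their values were seen. Tested on simulated counts for Ezr-KOm against WT in moM (15811 genes, 200 changed by a log2 value of 1), the fit recovered 43.5% of the changed genes, with 2.25% of calls false. The simulated libraries were independent, without an effect of the replicate number, and the changed genes were drawn from all tested genes. The recovered share is therefore not the power for the 52 members, which spread more widely among Ezr-KOm libraries. Exon lengths, overlaps and promoter windows came from Gencode vM39 on GRCm39, and near copies from BLAST 2.17.0. Alternatives were DESeq2 1.42.0, other normalizations and filters, fits of a population or genotype alone, replicate blocks and left-out libraries.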

Additional observations from a re-analysis of the deposited data

How the results depend on the processing

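Members called by the study's rule between genotypes in trIM were 2, against 0 with the replicate block (Mx1 at 0.74 and Mx2 at 0.72, just under 0.75) and 1 by DESeq2; the block changed no call at the adjusted p between genotypes. Between populations, the counts at the adjusted p with genotype and replicate number as a block, a pairing of libraries of the same number, were 26, 10 and 31 in WT (trIM against moM, matIM against trIM, matIM against moM) and 13, 9 and 26 in Ezr-KOm. With the genotype fitted alone they were 5 and 20 in WT (matIM against trIM, matIM against moM) and 1 and 4 in Ezr-KOm (trIM against moM, matIM against moM), and DESeq2 gave 11 for matIM against moM in Ezr-KOm. Leaving out libraries, the counts between genotypes ranged from 0 to 3 in moM, 0 to 9 in trIM and 0 to 3 in matIM at the adjusted p, and from 0 to 9, 0 to 18 and 0 to 10 by the study's rule, the upper ends being without Ezr-KOm libraries numbered 2. Between populations they ranged from 2 to 10, 1 to 2 and 4 to 11 in WT and from 0 to 4, 1 to 4 and 3 to 14 in Ezr-KOm. The negative estimates of Tgtp1 and Gbp4 in trIM ranged from -1.04 to 0.38 and from -0.81 to 0.32, and those of Igtp, Irgm2 and Parp14 in matIM from -0.59 to 0.035, -0.48 to 0.067 and -0.47 to 0.027, all turning positive without WT library 3. Fits with libraries left out or with 1 genotype alone rest on fewer libraries for all genes, and their shares of all tested genes are not given here. The causes of these changes were not tested.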
